A study of Mus musculus with 5 samples.

Results

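The genes of the cytosolic ribosome were examined for CTCF peaks in the mouse fibroblast line NIH3T3. The members were the protein-coding genes whose symbol is Rpl or Rps followed by a number, with Rplp0, Rplp1, Rplp2 and Rpsa, and without the Rps6k kinases. They came to 85 of 21779 protein-coding genes, of which 53 encode proteins of the large subunit or close copies of them and 32 those of the small subunit. Among them, 8 genes with an l after the number, such as Rpl3l and Rps27l, are paralogs, several of which are known from muscle or testis. The label rests on symbols alone, since peak positions hold no marker of expression.

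Chromatin immunoprecipitation and sequencing gave 2 CTCF libraries from cells given doxycycline for 6 h (CTCF_Dox), 2 CTCF libraries from cells without it (CTCF_noDox) and 1 input library without it. All 5 came from cells stably carrying H2B-mCherry, the rtTA3G transactivator and CDX2 under the doxycycline-inducible TRE3G promoter, and the labels do not say whether the line is a single clone. Doxycycline was used at 500 ng/µL according to the labels. The data used are 1 list of 22756 peak intervals, merged over both conditions and without heights, so the depth behind a peak is unknown, CTCF_Dox could not be set against CTCF_noDox, and no value below has a replicate. Intervals given for shares are exact 95% Clopper-Pearson intervals, which cover only the counting of genes, and no difference between groups of genes was tested.

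CTCF is a zinc finger protein that holds the bases of chromatin loops and can separate enhancers from promoters, and it also binds near many active promoters. Ribosomal protein genes are short, transcribed at a high level in growing cells, and their products are assembled together with the ribosomal RNAs into the subunits. Many of them carry small nucleolar RNA (snoRNA) genes in their introns, and most of their messenger RNAs begin with a run of pyrimidines through which the kinase mTOR sets their translation.

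Starts and strands came from RefSeq promoter windows of 300 bases on GRCm38.p6 (the assembly behind mm10), which reach from 250 bases before a start to 50 after it. Of the members, 65 matched, with 77 windows, and 13 windows of 12 genes overlapped a CTCF peak, against 3.59% of all promoter windows. A core of the CTCF motif (CCA, any 2 bases, AG, any 2 bases, GGC), searched on both strands, was found in 3 of these 13 windows (23.1%), against 17.1% of all 1179 promoter windows with a peak. Over windows with or without a peak it was in 3 of 77 (3.90%), against 2.43% of all 32851. Those 3 windows are shown here in full, 5′ to 3′ along the gene, because in each of them the core lay wholly inside the called peak. Capitals mark the core.
Rplp0, chr5:115559217-115559516, plus strand: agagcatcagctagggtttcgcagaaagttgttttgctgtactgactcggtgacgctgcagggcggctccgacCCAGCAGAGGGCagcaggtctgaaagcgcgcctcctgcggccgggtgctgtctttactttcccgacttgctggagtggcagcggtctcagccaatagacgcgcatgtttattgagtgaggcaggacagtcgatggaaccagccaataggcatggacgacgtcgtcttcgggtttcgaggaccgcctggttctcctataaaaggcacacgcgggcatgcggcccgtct
Rpl38, chr11:114668330-114668629, plus strand: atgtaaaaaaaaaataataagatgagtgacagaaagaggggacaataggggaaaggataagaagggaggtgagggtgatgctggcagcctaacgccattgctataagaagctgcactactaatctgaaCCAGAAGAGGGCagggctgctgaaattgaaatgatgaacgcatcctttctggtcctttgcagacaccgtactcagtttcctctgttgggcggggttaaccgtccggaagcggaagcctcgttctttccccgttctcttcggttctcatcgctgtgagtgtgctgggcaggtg
Rps4x, chrX:102189342-102189641, minus strand: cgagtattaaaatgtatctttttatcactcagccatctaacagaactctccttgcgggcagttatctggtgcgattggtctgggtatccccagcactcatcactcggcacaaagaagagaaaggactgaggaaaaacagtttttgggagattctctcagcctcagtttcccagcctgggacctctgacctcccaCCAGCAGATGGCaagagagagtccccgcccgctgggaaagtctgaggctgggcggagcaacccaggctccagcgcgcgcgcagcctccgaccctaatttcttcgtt

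The core began 177 bases before the start of Rplp0, 122 bases before that of Rpl38 and 56 bases before that of Rps4x, each time on the strand of the gene. A different sequence was more frequent in the members. CCGGAAG, the letters bound by ETS factors, was found on either strand in 27 of 77 member windows (35.1%), against 8.86% of all windows. Within windows overlapped by a peak it was found in 5 of 13 at members (38.5%), against 17.4% of all. The windows of Rpl11, Rpl26 and Rps3a1 are shown as starts covered by a peak that hold CCGGAAG, in capitals, and not the CTCF core letters.
Rpl11, chr4:136053344-136053643, minus strand: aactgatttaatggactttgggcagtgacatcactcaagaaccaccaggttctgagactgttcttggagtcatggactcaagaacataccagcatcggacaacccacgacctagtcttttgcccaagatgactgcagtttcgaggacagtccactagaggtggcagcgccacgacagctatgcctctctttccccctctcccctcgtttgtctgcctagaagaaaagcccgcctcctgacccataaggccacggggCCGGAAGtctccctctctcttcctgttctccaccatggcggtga
Rpl26, chr11:68901316-68901615, plus strand: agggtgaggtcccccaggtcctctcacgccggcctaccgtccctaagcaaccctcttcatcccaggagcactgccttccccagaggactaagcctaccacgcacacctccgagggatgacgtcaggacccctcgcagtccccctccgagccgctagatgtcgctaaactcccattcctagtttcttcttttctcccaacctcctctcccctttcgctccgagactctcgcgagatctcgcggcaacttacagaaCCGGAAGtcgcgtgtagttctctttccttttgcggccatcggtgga
Rps3a1, chr3:86142619-86142918, minus strand: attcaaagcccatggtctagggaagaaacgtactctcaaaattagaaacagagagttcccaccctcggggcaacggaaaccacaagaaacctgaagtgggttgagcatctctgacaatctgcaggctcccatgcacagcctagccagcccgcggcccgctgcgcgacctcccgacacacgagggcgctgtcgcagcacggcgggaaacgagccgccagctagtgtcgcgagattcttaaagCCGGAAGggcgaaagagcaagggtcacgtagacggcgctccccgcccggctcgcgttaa

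The ETS letters began at the base numbered 6 after the listed start in Rpl11, 4 in Rpl26 and -9 in Rps3a1, with the first base of the listed start counted as 0. That first base was G in 39.0% of the 77 member windows and A in 18.2%, against 35.6% and 34.4% of all windows. Whether a listed start is the first base transcribed in these cells was not tested. A match of letters is a description and not a bound site. Absence of the CTCF core letters does not mean absence of a CTCF site. Of all promoter windows with a peak, 17.1% held those letters. AAGATGGC, the letters of YY1, was found in 8 of 77 member windows (10.4%), against 2.75% of all windows, and in 0 of the 13 with a peak, against 3.90% of all windows with a peak. TATAAA was found in 8 of 77 (10.4%), against 13.6% of all, and in 2 of the 13 with a peak (15.4%), against 8.65% of all windows with a peak. A pyrimidine tract (CTTTC, or in its place CTTCC, or else CTTCT, or else CTTTT, on the gene's strand within 10 bases of the start) was found in 26 of 77 member windows (33.8%), against 11.1% of all windows. It was present in 2 of the 13 member windows with a peak (15.4%), those of Rpl38 and Rpl7a, against 11.6% of all windows with a peak. With 13 windows, counts this small are near those shares. Windows of the same gene overlap, so these counts are not of independent sequences. The tracts of 4 members are shown with the tract in capitals, in the 21 bases centred on the start.
Rplp2, chr7:141447641-141447661, plus strand: cagcgtCTTCCTTTCgccgcc
Rpl15, chr14:18270976-18270996, minus strand: agaaagcCTTCTTCCTTTCct
Rpl38, chr11:114668570-114668590, plus strand: aagcctcgttCTTTCcccgtt
Rps10, chr17:27635234-27635254, minus strand: gcgcacgcccCTTCCTTTCca

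The larger part of the ribosomal protein genes had a CTCF peak nearby. A peak midpoint fell inside the gene or in the 10 kb on each side at 60 of 85 members (70.6%, 59.7 to 80.0%), against 50.8% of all protein-coding genes. Member genes are short, with a median of 3.17 kb against 17.2 kb, and among the 8728 protein-coding genes no longer than the longest member (11774 bp) the share was 37.9%. The members had 1.27 peaks per gene (median 1, at most 5), against 1.02 in all protein-coding genes (median 1) and 0.624 in those short genes (median 0). At least 2 peaks were found at 28 of 85 members (32.9%), against 25.7% of all protein-coding genes and 15.8% of the short ones.

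Peaks were also counted at the gene ends themselves. Within 1 kb of either end, 34 of 85 members had a peak (40.0%, 29.5 to 51.2%), against 12.0% of all protein-coding genes and 11.2% of the short ones. Within 1 kb of a start, 19 of the 65 members with a known strand had one (29.2%, 18.6 to 41.8%), against 8.22% of the 17492 protein-coding genes with a promoter entry and 6.99% of the short ones. In the body alone the members (22 of 85, 25.9%, 17.0 to 36.5%) were below all protein-coding genes (29.5%) and above the short genes that are not members (10.9%). The body share was 19.2% (11.2 to 29.7%) in mitochondrial ribosomal protein genes, 25.0% (11.5 to 43.4%) in ribosome biogenesis genes and 11.1% (3.11 to 26.1%) in translation factors. Genes of these lists are longer, with medians of 7.69, 14.3 and 15.0 kb.

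**Figure D1:**
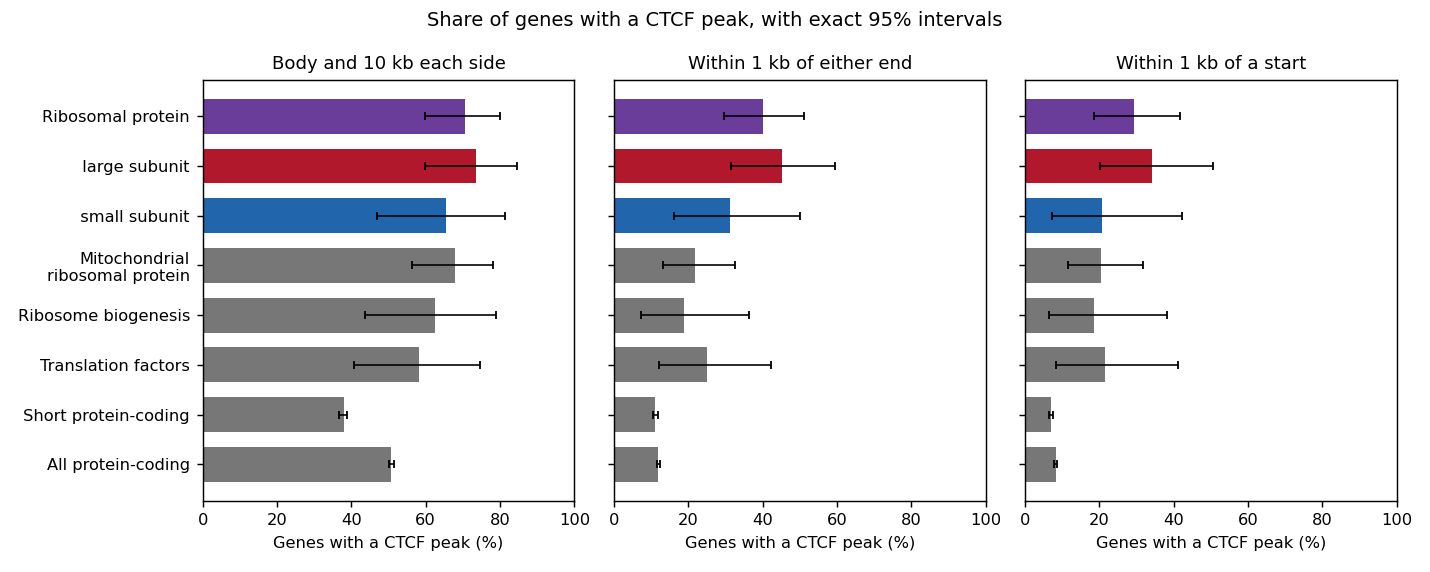
Bars give the percentage of genes with a CTCF peak in the body and 10 kb each side, within 1 kb of either end and within 1 kb of a start, and whiskers the exact 95% intervals. Ribosomal protein genes stand at 70.6%, 40.0% and 29.2%, and all protein-coding genes, at the bottom, at 50.8%, 12.0% and 8.22%; short protein-coding genes are those no longer than the longest member.

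Peaks within 1 kb of a start lay on both sides of it. There were 20 of them at the 19 genes, 11 with the midpoint before the start and 9 after it. In the 1 kb before the start 11 of 65 members had a peak (16.9%), against 5.95% of all and 4.85% of short protein-coding genes, and in the 1 kb after it 9 of 65 did (13.8%), against 2.70% and 2.57%. The peak covered the first base of a listed start itself at 8 of 65 members (12.3%, 5.47 to 22.8%), against 3.18% and 2.53%. These 8 were Rpl5, Rpl10a, Rpl11, Rpl26, Rpl36a, Rps3a1, Rps4x and Rps15. In mitochondrial ribosomal protein genes a peak covered a listed start at 5 of 69 (7.25%, 2.39 to 16.1%), an interval that overlaps that of the members. A midpoint within 250 bp of a start was found at 9 of 65 members and at 9 of 69 mitochondrial genes.

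**Figure D2:**
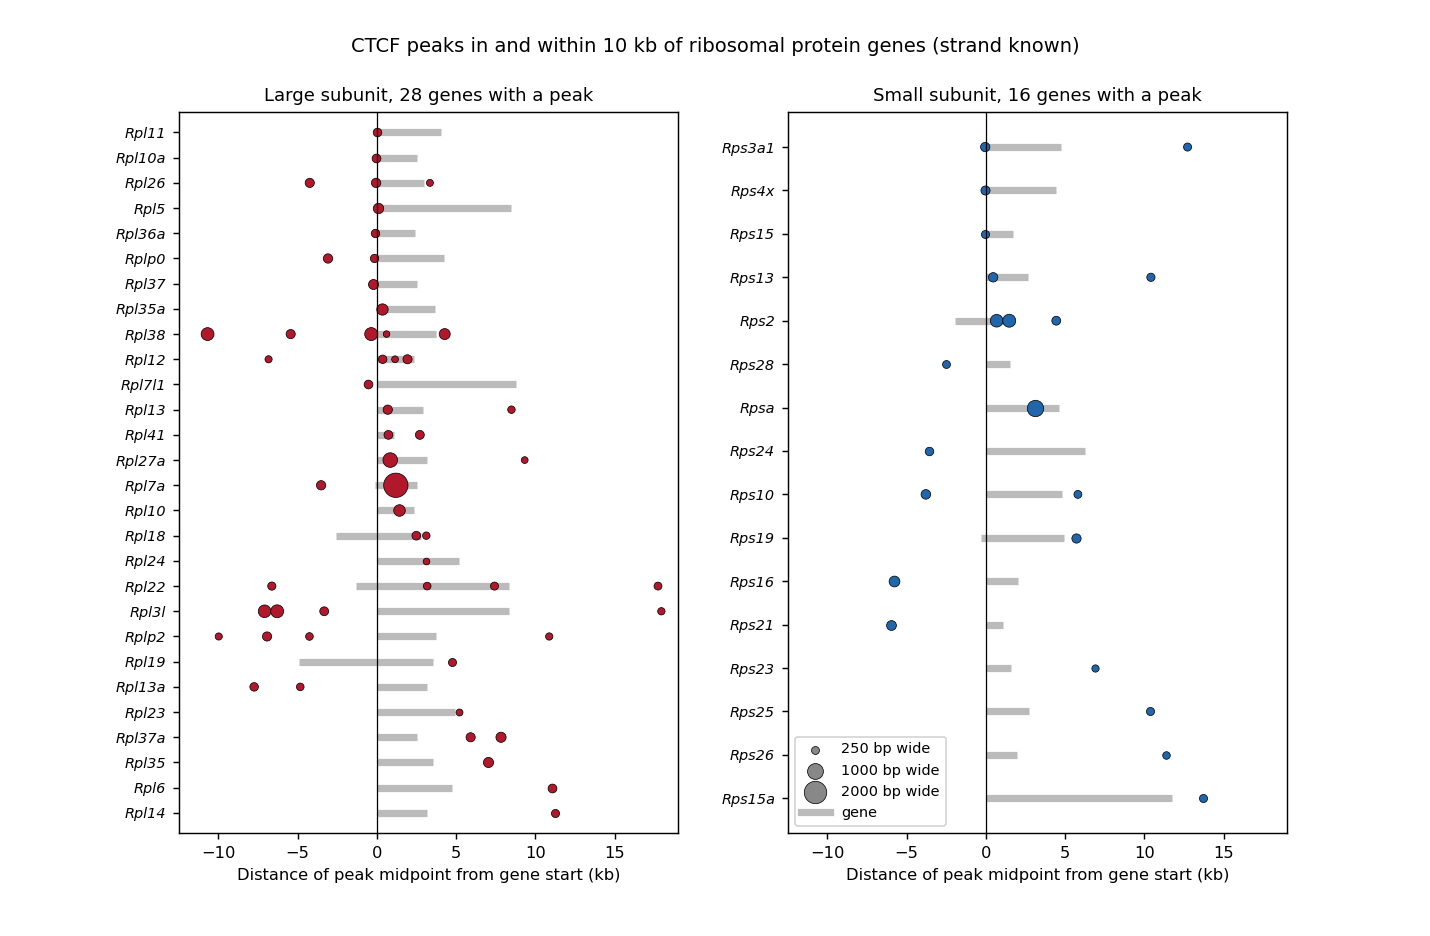
Each row is a ribosomal protein gene of known strand with at least 1 peak, ordered by the distance of its nearest peak; circles are peak midpoints in kb from the listed start nearest to any peak, with area in proportion to peak width, and grey bars are the gene records. Of the 28 large subunit genes (left) 14 have a circle within 1 kb of the start, and of the 16 small subunit genes (right) 5 have one, and the widest circle, at Rpl7a, is a peak of 2360 bp.

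Among the large subunit genes, Rpl5 and Rpl11 encode the proteins that join the smallest ribosomal RNA before it enters the subunit and that can bind the p53 regulator Mdm2. Both had a single peak, and it covered the start. That of Rpl11 (chr4:136053258-136053552) was centred 12 bp before the start, nearest among the 65 members, and that of Rpl5 (chr5:107900371-107900806) 60 bp after it. The stalk that recruits translation GTPases is made by Rplp0, Rplp1 and Rplp2, with Rpl12 at its base. Rplp0 had a peak centred 144 bp before the start (chr5:115559185-115559462), which ended short of the first base, and another 3.08 kb before it. Rplp2 had 4 peaks, all in the flanks, at 4.25, 6.93 and 9.98 kb before the start and 7.17 kb beyond the end, and Rplp1 had 1, at 6.06 kb from its nearer end. Rpl12 had 4 peaks, 3 of them inside the gene, with midpoints 369, 1149 and 1935 bp after the start.

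Rpl38 and Rpl3 had the most peaks of all members, 5 each. Rpl38, whose mutation in mice alters the skeleton and the translation of Hox messages, had a peak of 673 bp at chr11:114667888-114668560, centred 356 bp before the listed start, a narrow one of 171 bp centred 611 bp after it, and 3 in the flanks. The gene record begins farther upstream than that start, so the peak of 673 bp also counts as a body peak. Rpl3, which reaches towards the catalytic centre, had 3 peaks in the body and 2 outside. The nearest to an end, inside the gene, was at 725 bp, and the next, outside it, at 808 bp. Rpl22, an RNA-binding protein needed for T cell development in mice, had 4 peaks, 2 of them in the body at 3175 and 7423 bp after the start. Rpl32 also had 4, 1 in the body and 1 at 291 bp beyond an end. Rpl3l, the paralog of Rpl3 known from striated muscle, had 4 in its flanks, at 3.32, 6.29 and 7.08 kb before the start and 9.64 kb beyond the end, and 0 in its body.

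Rpl26, which lies by the exit of the nascent peptide, had a peak of 349 bp over its start (chr11:68901344-68901692, centred 48 bp before it), with others 4.23 kb before the start and 381 bp beyond the end of the gene. Rpl10a had its only peak centred 33 bp before the start (chr17:28328285-28328591). Rpl37 had a peak 271 bp before the start (chr15:5116143-5116542), Rpl7l1 540 bp before, Rpl35a 306 bp after, Rpl13 689 bp after, Rpl41 729 bp after and Rpl27a 845 bp after. Each of these midpoints lies within 1 kb of the start, and those of Rpl35a, Rpl13, Rpl41 and Rpl27a lie inside the gene. With Rpl10a, Rpl5, Rpl11, Rpl26, Rpl36a, Rplp0, Rpl12 and Rpl38, they make the 14 large subunit genes with a peak within 1 kb of a start.

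By midpoint, Rpl7a, Rpl10, Rpl18, Rpl22 and Rpl24 had a peak in the body but none within 1 kb of a start. The wide peak of Rpl7a was centred 1198 bp after the start, yet 31 bases of the promoter window lay under it. Rpl24, mutated in Belly spot and tail mice, had a single peak 3086 bp after its start. Rpl6, Rpl14, Rpl19, Rpl23, Rpl35 and Rpl37a had peaks only beyond the end of the gene, that of Rpl23 at 286 bp from it. Rpl13a had peaks only before the start, at 4.83 and 7.74 kb. Among large subunit genes without a strand here, Rpl3, Rpl8, Rpl29, Rpl32 and Rpl36 had a peak up to 1 kb from an end, Rpl17 and Rpl21 had one farther inside the body, and Rpl7, Rpl23a and Rplp1 had flanking peaks only. From the nearer end, the peak was at 206 bp in Rpl8, 291 bp in Rpl32, 641 bp in Rpl29 and 760 bp in Rpl36, and those of Rpl8, Rpl29 and Rpl36 lay inside the gene.

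In the small subunit, 5 of 24 genes of known strand had a peak within 1 kb of the start. Those of Rps15 (chr10:80292224-80292484), Rps3a1 (chr3:86142540-86142885) and Rps4x (chrX:102189275-102189604) covered it, centred 77, 44 and 48 bp before it. Rps13 had one 458 bp after the start and one 7.73 kb beyond the end of the gene. Rps2, at the entry of the messenger RNA channel, had one 680 bp after it, another 1473 bp after it and one beyond the gene. Rps2 and Rps14 had 3 peaks each, and no gene of this subunit had more. Rps14, whose loss in humans is part of an acquired anaemia, had a peak 242 bp beyond an end of the gene and others 7.22 and 8.69 kb from one.

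The other small subunit peaks were mostly distant. Rps16, Rps21, Rps24 and Rps28 had peaks only before the start, between 2.50 and 5.97 kb away, and Rps15a, Rps19, Rps23, Rps25 and Rps26 only beyond the end of the gene. Rps19, the gene most often mutated in human Diamond-Blackfan anaemia, had its single peak 802 bp beyond the end. Rps10 had 1 on each side, at 977 bp beyond the end and 3.79 kb before the start. Rpsa, also known as a laminin receptor precursor, had 1 peak, of 1076 bp, in the body. Among genes without a strand here, Rps29 had a peak 531 bp from an end. Rps6, the target of the S6 kinases, had no peak.

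Set side by side, large subunit genes had 1.47 peaks per gene and small subunit genes 0.938. A peak inside the gene or its 10 kb flanks was found at 39 of 53 large (73.6%, 59.7 to 84.7%) and 21 of 32 small subunit genes (65.6%, 46.8 to 81.4%). Within 1 kb of a start the counts were 14 of 41 (34.1%, 20.1 to 50.6%) and 5 of 24 (20.8%, 7.13 to 42.2%). Within 1 kb of either end they were 24 of 53 (45.3%, 31.6 to 59.6%) and 10 of 32 (31.2%, 16.1 to 50.0%). In these measures the intervals of large and small subunit genes overlap widely. They overlap least in the gene body, with 19 of 53 large (35.8%, 23.1 to 50.2%) and 3 of 32 small subunit genes (9.38%, 1.98 to 25.0%). The 3 small subunit genes were Rps2, Rps13 and Rpsa. At least 4 peaks were found at 7 large subunit genes (13.2%) and at 0 small ones, against 6.03% of all protein-coding genes and 2.06% of the short ones. The median gene length was 3.17 kb for large and 3.11 kb for small subunit genes. The 8 genes with an l after the number, 7 large and 1 small, had a peak at 2 of 8.

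**Figure D3:**
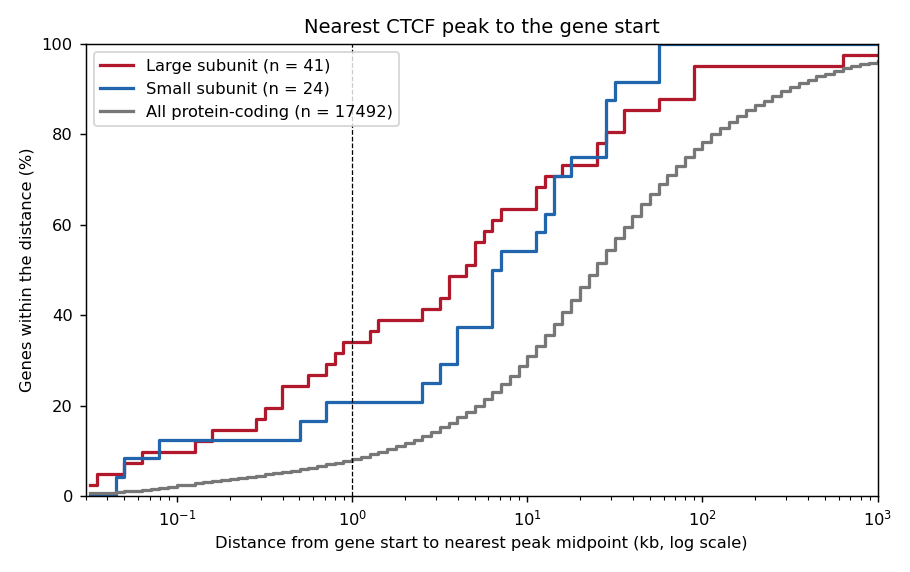
Lines give the cumulative percentage of genes whose nearest peak midpoint lies within a distance of the start (kb, log axis). At 1 kb, the dashed line, 34.1% of 41 large subunit genes, 20.8% of 24 small subunit genes and 8.22% of 17492 protein-coding genes have a peak.

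From start to nearest peak the median was 4.25 kb in large and 6.44 kb in small subunit genes. Over all 65 members it was 5.20 kb (quartiles 0.689 and 24.4 kb), against 23.4 kb (7.19 and 79.7 kb) in all protein-coding genes with a promoter entry. The large and small subunit curves cross at short and at long distances, and from 1 kb on both lie above that of all protein-coding genes.

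Peaks inside ribosomal protein gene bodies were often wide. The 29 body peaks had a median width of 333 bp (quartiles 235 and 666 bp). It was 289 bp in the bodies of short protein-coding genes, members included, and 262 bp in the whole list. Of the 29, 11 (37.9%) were 500 bp or wider, against 9.45% in the bodies of short protein-coding genes, members included, and 4.05% of all peaks. In the flanks 4 of 75 were (5.33%), and in the bodies of mitochondrial ribosomal protein genes 2 of 18 (11.1%). The 3 widest were those of Rpl7a (chr2:26910826-26913185, 2360 bp, most of the gene), Rpl21 (chr5:146834264-146835888, 1625 bp) and Rpsa (chr9:120130331-120131406, 1076 bp). Only 7 peaks of 1 kb or wider lay in bodies of short protein-coding genes (0.624%, against 0.259% of the whole list), and these 3 were among them. The other body peaks of 500 bp or more were Rpl27a with 848 bp, Rpl17 with 726 bp, Rpl36 with 721 bp, Rpl38 with 673 bp, Rps2 with 666 and 638 bp, Rpl10 with 536 bp and Rpl35a with 511 bp.

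**Figure D4:**
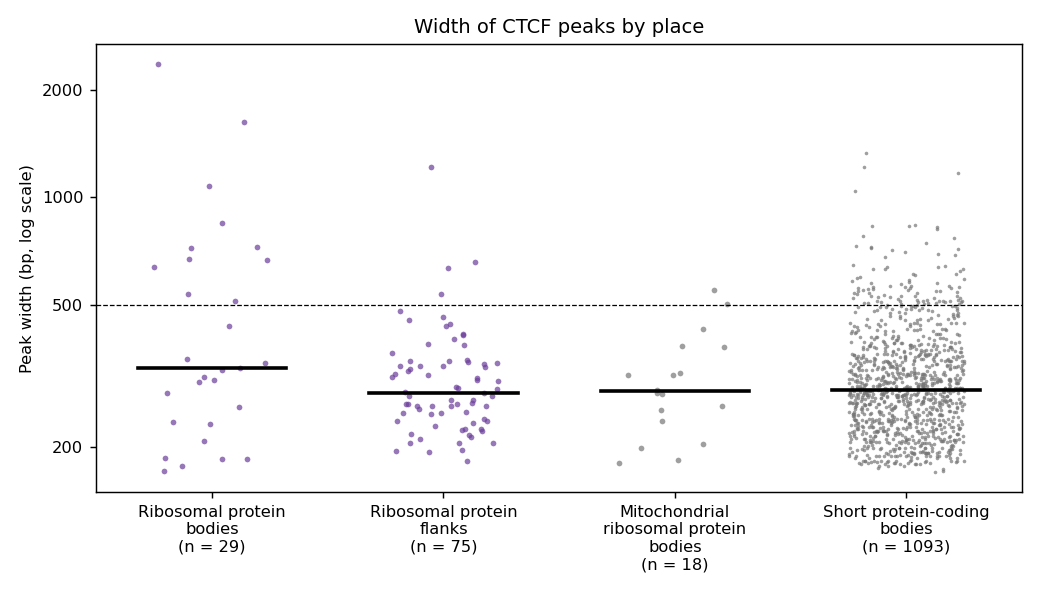
Points are single CTCF peaks by width (bp, log axis), black lines are medians, and the dashed line marks 500 bp. Of 29 peaks in ribosomal protein gene bodies 11 reach 500 bp, against 4 of 75 in their 10 kb flanks; the column at the right holds the short protein-coding genes other than the members.

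Body peaks of the members also met snoRNA genes. Of the 29, 8 overlapped an annotated snoRNA gene (27.6%), against 24 of the 22756 peaks of the whole list (0.105%). In the bodies of short protein-coding genes, members included, 8 of 1122 peaks did (0.713%), and these are the same 8. Among peaks of 500 bp or wider it was 6 of 11 (54.5%), at Rpl7a, Rpl17, Rpl21, Rpl27a, Rps2 and Rpsa. These 6 are also the only overlaps among the 106 peaks of that width in short protein-coding bodies (5.66%) and among the 922 in the list (0.651%). A snoRNA gene lay inside 30 of the 85 members, and 13 of these 30 had a body peak (43.3%, 25.5 to 62.6%), against 6 of 39 other short protein-coding genes with a snoRNA gene inside (15.4%, 5.86 to 30.5%) and 9 of the 55 members without one. A wide interval covers more genes whatever its place, and the part of width in these overlaps was not tested.

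The ribosomal protein genes have many pseudogene copies, in which short reads can be placed wrongly, so the values of single members are uncertain. Of 318 pseudogenes named after a member, 6 had a peak inside them or up to 1 kb away (1.89%), against 2.93% of all 10330 pseudogenes, while by the same measure 39 of the 85 members did (45.9%). Of the genes with the 3 widest body peaks, Rpl21 has 15 named pseudogenes, Rpl7a 14 and Rpsa 12. Rpl31 and Rps12, which have the most, 23 each, had no peak. The part of such copies in the peaks was not tested.

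The 4 members on chromosome X, where the list holds only 185 peaks, had 3 peaks in all. Rps4x and Rpl36a (chrX:134585396-134585680, centred 116 bp before the start) had a peak over the start, and Rpl10, which joins the large subunit at a late step of assembly, had one of 536 bp in its body, 1391 bp after the start. Rpl39 had none. A peak inside the gene or its 10 kb flanks was thus found at 3 of 4, against 9.66% of protein-coding genes of the chromosome. One over a start was found at 2 of 4 (50.0%, 6.76 to 93.2%), against 0.857% of those with a promoter entry.

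Some of these peaks also lay by other genes. The peak near the start was also within 1 kb of an end of another protein-coding gene at Rpl12 (Lrsam1), Rpl35a (Iqcg), Rpl37 (Card6) and Rpl41 (Zc3h10), 4 of the 20 start peaks. Of 64 distinct peaks that were not within 1 kb of a member's end, 10 were within 1 kb of an end of another protein-coding gene. For neither count is the share over all peaks given, so neither is read as particular to the members. Rps2 and Rpl3l, which follow each other on chromosome 17, share 3 peaks, which count for both genes.

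No peak lay inside the remaining 25 members or in their 10 kb flanks. In the large subunit these were Rpl4, Rpl9, Rpl10l, Rpl15, Rpl22l1, Rpl27, Rpl28, Rpl30, Rpl31, Rpl32l, Rpl34, Rpl36al, Rpl39 and Rpl39l, 14 genes of which 5 are paralogs with an l after the number. In the small subunit they were 11 genes, among them Rps3, Rps6, Rps7, Rps9, Rps12, Rps18, Rps20, Rps27, Rps27a and Rps27l. A gene with no listed peak may have lacked reads, and the limit of detection cannot be stated from a list without heights.

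Other genes of translation were counted in the same way. Mitochondrial ribosomal protein genes, which serve the ribosome of that organelle, had a peak inside the gene or its 10 kb flanks at 53 of 78 (67.9%, 56.4 to 78.1%) and within 1 kb of either end at 17 of 78 (21.8%, 13.2 to 32.6%), with Mrpl49 at 4 peaks the highest. Within 1 kb of a start their large and small subunit genes stood at 6 of 43 (14.0%, 5.30 to 27.9%) and 8 of 26 (30.8%, 14.3 to 51.8%). Over both subunits it was 14 of 69 (20.3%, 11.6 to 31.7%), and 19 of 65 cytosolic members (29.2%, 18.6 to 41.8%). In the 1 kb before the start the mitochondrial genes were not below the cytosolic members. There 13 of 69 had a peak (18.8%, 10.4 to 30.1%), and 11 of 65 cytosolic members did (16.9%, 8.76 to 28.3%). After the start, in the first 1 kb, 2 of 69 mitochondrial genes had a peak (2.90%, 0.353 to 10.1%), while 9 of 65 cytosolic members did (13.8%, 6.53 to 24.7%). Genes of ribosome biogenesis and RNA polymerase I had a peak at 20 of 32 (62.5%, 43.7 to 78.9%) and an end peak at 6 of 32 (18.8%, 7.21 to 36.4%). Among them Rrp1 and Utp4 had 3 peaks, and Ncl, which encodes nucleolin, and Ubtf, the upstream factor of RNA polymerase I, had 2. Translation factors had a peak at 21 of 36 (58.3%, 40.8 to 74.5%) and an end peak at 9 of 36 (25.0%, 12.1 to 42.2%), with 4 peaks at Eef2, the translocation factor, and 3 at Eif4b and Eif6. Within 1 kb of a start, 5 of 27 ribosome biogenesis genes (18.5%, 6.30 to 38.1%) and 6 of 28 translation factors (21.4%, 8.30 to 41.0%) had a peak. Both intervals overlap widely with that of the cytosolic members.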

How the data were processed

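Per the labels' protocols, chromatin was fixed with formaldehyde, sonicated and precipitated with a CTCF antibody together with a Drosophila chromatin spike-in. STAR, Picard and MACS2, and the builds mm10 and dm6, are named without versions or roles per the submitters' processing notes. Peak threshold, merging rule and use of the spike-in are not given there. The deposited file holds peak intervals (chromosome, start, end), a position with no other unit and nothing normalised. Coordinates are counted from 1.

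Genes came from RefSeq for GRCm38.p6; genes listed below 3 Mb on any chromosome but Y, where no peak lies, and genes outside the assembled nuclear chromosomes were dropped. A peak belonged to a window that held its midpoint. Starts were all those of the promoter table; members without an entry were described by gene ends. All members were counted, and positions were given for members with most peaks, with a peak within 1 kb of a start (of an end, without a strand), and for a fixed list (Rplp0, Rplp1, Rplp2, Rpsa, Rps6, Rps19, Rpl5, Rpl11 and Rpl22). The members and lists were chosen with earlier results of these data known; the limits of 500 bp and 1 kb on width, the set of short genes and the snoRNA counts were chosen after the peaks were seen. Symbols such as Rps19bp1, Rps23rg1 and Rpl37rt, and those with -ps, were not counted as members. Values of some single members are not reported here, though they enter the counts. Counting was tested on simulated peaks with known places. Python 3.11.15, pandas 2.3.3 and scipy 1.17.1 were used.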

Additional observations from a re-analysis of the deposited data

How the results depend on the processing

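Of 134 alternative values, 116 stayed near the value given in the report (inside the exact interval of a share, or within 1.5 times a count, mean or median) and 18 moved. With the body alone, 25.9% of members had a peak (35.8% of large and 9.38% of small subunit genes), with 0.341 peaks per gene (0.472 and 0.125) and 29 distinct peaks. With 5 kb flanks the share was 58.8%, that of small subunit genes 43.8% and their peaks per gene 0.562; with 20 kb flanks the last was 1.44. Within 500 bp of either end, 25.9% of members and 28.3% of large subunit genes had a peak. With the narrower part of the list (below its median width) left out, the values were 57.6% with a peak, 0.812 peaks per gene (0.925 in large subunit genes), 28.2% with an end peak and 66 distinct peaks. In each of these moves the window or the list was made smaller or larger by construction. Ends within 2.5 kb, counting any overlap, merging close peaks, leaving out chromosome 11, leaving out the paralogs with an l, taking in every symbol that begins with Rpl or Rps and a number, leaving out peaks of 1 kb or wider and taking the outer end of the gene record as the start moved no value; the last 2 were added after seeing the data. No paired analysis was possible because no interval is tied to a sample, and for the same reason no replicate could be left out. Without heights, weak and strong peaks count alike.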

Other observations

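Peaks of 1 kb or wider in the bodies of other short protein-coding genes lay at Gapdh, a glycolytic enzyme gene (1330 bp), Nek8 (1219 bp), Tmc8 (1168 bp) and Ap5b1 (1040 bp). The peak in Nek8 is also the outer of the 2 flanking peaks of Rpl23a. Of 6 protein-coding genes whose symbols begin like those of the members but were not counted, Rps19bp1, which encodes a protein that binds Rps19, had 2 peaks, Rpl37rt, Rps23rg1 and Rpl34-ps1 had 1 each, and Rps27rt and Rpl31-ps12 had 0.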
